A study of Homo sapiens and Homo sapiens
Mus with 12 samples.

Results

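Genes of cholesterol and fatty acid synthesis were followed in human bladder cancer cells in which the cadherin CDH11 had been knocked down (CDH11 KD), in culture and in xenograft tumors. The list held 32 genes, chosen by name, of 21479 genes listed for the cultured cells and 26813 human genes listed for the tumors. It was made of 19 sterol genes (the enzymes that lead from acetyl-CoA to cholesterol, and the sterol carrier STARD4), 8 fatty acid genes and 5 regulators. The cells were UM-UC-3, an advanced bladder cancer line. They carried a nonsilencing control hairpin (shCtrl) or 1 of the CDH11 hairpins sh#1 and sh#2, each delivered with GFP by lentivirus and sorted for GFP, so all libraries of a hairpin came from cells sorted after infection with that virus, and replicates were not separate knockdowns. Cultured cells were kept for 24 h before RNA was taken, with 3 libraries each of shCtrl, sh#1 and sh#2. Tumors came from cells injected in Matrigel under the skin of male nude mice aged 5 weeks and were sampled after 4 weeks, with 5 tumors each of shCtrl, sh#1 and sh#2.

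Cholesterol is built from acetyl-CoA through mevalonate, squalene and lanosterol, and fatty acids from malonyl-CoA by fatty acid synthase, followed by elongation and desaturation. The transcription factors SREBP-1 (gene SREBF1) and SREBP-2 (SREBF2) drive many of these genes. SCAP carries the SREBP precursors from the endoplasmic reticulum to the Golgi, where they are cleaved into active factors, and INSIG1 and INSIG2 hold SCAP back when sterols are plentiful. SREBP-2 acts mainly on sterol genes and SREBP-1c mainly on fatty acid genes, and INSIG1 is itself a target of SREBPs. Carcinoma cells often keep both routes active.

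Of the promoters, those of INSIG1 and INSIG2 are shown as the brakes on SREBP processing, which rose with both hairpins in culture, that of ELOVL6 as the listed gene with the lowest log2 fold changes there, and that of SREBF2 as the one with a sterol element. Each run covers 250 bases before to 50 after a start site, 5′ to 3′ on the gene's strand, from the RefSeq table of GRCh38.p14. Capitals mark exact matches, on either strand, to the core of a sterol regulatory element, TCACNCCAC, or to the box bound by NF-Y, CCAAT (read as ATTGG on the other strand). INSIG1 lies at chr7:155297628-155297927, plus strand. The INSIG2 run is the first of its start sites in the table, at chr2:118088221-118088520, plus strand. ELOVL6 lies at chr4:110198566-110198865, minus strand, and SREBF2 at chr22:41832855-41833154, plus strand.
INSIG1: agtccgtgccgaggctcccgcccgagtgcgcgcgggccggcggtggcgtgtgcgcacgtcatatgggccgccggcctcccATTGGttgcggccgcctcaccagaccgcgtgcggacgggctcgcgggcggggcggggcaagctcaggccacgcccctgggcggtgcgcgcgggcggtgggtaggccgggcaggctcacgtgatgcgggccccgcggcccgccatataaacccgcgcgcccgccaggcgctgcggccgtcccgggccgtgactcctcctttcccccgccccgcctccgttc
INSIG2: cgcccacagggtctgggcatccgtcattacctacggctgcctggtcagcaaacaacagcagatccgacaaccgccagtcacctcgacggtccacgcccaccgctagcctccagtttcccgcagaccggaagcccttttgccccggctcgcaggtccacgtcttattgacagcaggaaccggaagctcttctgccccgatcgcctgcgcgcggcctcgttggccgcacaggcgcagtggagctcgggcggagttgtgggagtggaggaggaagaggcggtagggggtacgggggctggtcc
ELOVL6: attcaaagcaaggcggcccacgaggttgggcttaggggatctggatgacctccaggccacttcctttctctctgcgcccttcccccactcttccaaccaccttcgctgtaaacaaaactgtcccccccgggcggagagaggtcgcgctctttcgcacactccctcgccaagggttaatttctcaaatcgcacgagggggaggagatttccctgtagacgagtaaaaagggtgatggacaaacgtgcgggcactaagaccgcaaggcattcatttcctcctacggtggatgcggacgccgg
SREBF2: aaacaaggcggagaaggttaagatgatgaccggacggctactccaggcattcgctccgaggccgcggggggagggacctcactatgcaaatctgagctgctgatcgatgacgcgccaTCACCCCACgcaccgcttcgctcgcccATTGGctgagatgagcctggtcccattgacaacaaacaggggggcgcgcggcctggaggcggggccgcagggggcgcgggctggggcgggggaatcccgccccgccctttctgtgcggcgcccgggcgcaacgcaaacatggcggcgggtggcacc

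The sterol element core was in 1 of the 28 listed genes with a promoter entry (SREBF2, first base 133 before the start site) and in 1.39% of the 27305 genes of the table. The NF-Y box was in 21 of the 28 (75.0%) and in 39.7% of the table. INSIG1 had 1 NF-Y box, 170 bases before its start. INSIG2 and ELOVL6 had neither motif, and the same held for FADS1, SREBF1, CYP51A1, SCAP and PMVK. A match describes these letters in this window only.

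Gene totals were 2273182 to 2777019 counts per library in culture and 414849 to 1248977 human counts per tumor. Mouse genes took 10.35% to 30.02% of all counts in a tumor, with the highest share in sh#1 tumor 1, which also had the fewest human counts. All shCtrl tumors were sequenced in library mix 1, all sh#1 in mix 2 and all sh#2 in mix 3, so mix and hairpin cannot be told apart. The targeted gene CDH11 had 2 to 4 counts in cultured shCtrl, 0 to 1 in sh#1 and 0 to 2 in sh#2 libraries, too few for a test, and 5 to 32, 1 to 9 and 2 to 14 in the corresponding tumors. The paper reports, from separate measurements, that both CDH11 mRNA and CDH11 protein were lower in KD than in shCtrl cells. The carcinoma line markers KRT8, KRT18 and VIM were present in every library. Of the urothelial markers, UPK2 and KRT5 had at most 5 counts in any library, while GATA3 had 1 to 7 and PPARG 1 to 9. In the sh#1 cells KRT18, at 184 to 194 CPM, lay above the 125 to 139 of shCtrl. In the sh#2 cells VIM, at 3931 to 4331 CPM, lay above the 2140 to 2309 of shCtrl, and UPK1A, at 16 to 20 counts, above the 0 to 5 of shCtrl. Levels are CPM, the counts scaled to a fixed library size after TMM normalization. They depend on transcript length as well as abundance and are compared between samples of the same gene, never between genes. Differences, and every amount by which a gene is said to have risen, are log2 fold changes from edgeR's quasi-likelihood test. Their standard errors (SE) were worked out from the log2 fold change and the test statistic. The 95% intervals were built from the SE with a normal distribution, so they are approximate and can be too narrow. The q value is the p-value after Benjamini-Hochberg adjustment over all genes tested. A gene is said to have risen or fallen at q under 0.05 in culture and under 0.1 in tumors.

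In cultured cells the list did not move as a block. The brake INSIG2 had the largest log2 fold change of the genes tested on the list, INSIG1 rose as well, the elongase ELOVL6, the synthase FASN and the factor SREBF1 fell with both hairpins, and the sterol enzymes split between higher and lower. Of the 32 genes, 31 passed the filter on low counts (TM7SF2, at 4 to 14 counts, did not). With both hairpins 5 genes rose (INSIG1, INSIG2, IDI1, CYP51A1 and SC5D), 5 fell (SREBF1, SQLE, LSS, FASN and ELOVL6) and 1, SCD, fell with sh#1 and rose with sh#2. Over all 9859 genes tested 8.35% rose with both, 6.6% fell with both and 0.477% went the way of SCD. A further 9 genes (HMGCS1, MVK, PMVK, MVD, FDPS, STARD4, FADS2, SREBF2 and SCAP) passed no test in any of the 4 contrasts.

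**Figure D1:**
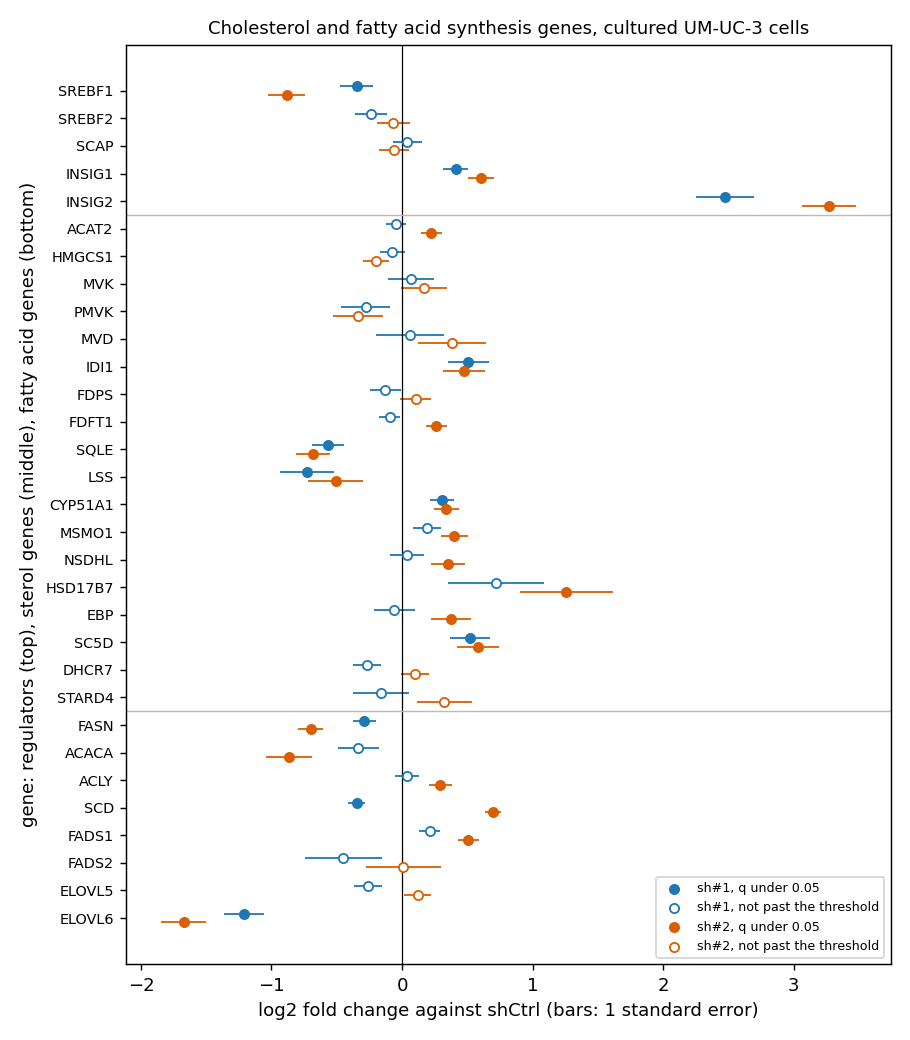
Log2 fold change against shCtrl (x axis, bars show 1 standard error) of the 31 genes tested in cultured cells (y axis), with sh#1 in blue and sh#2 in orange and filled points at q under 0.05. INSIG2 lies farthest to the right at 2.47 and 3.27, ELOVL6 farthest to the left at -1.21 and -1.67, and SCD has its points on opposite sides of 0.

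Among the regulators, with sh#1 and with sh#2 alike, 2 of 5 rose and 1 fell, where 11.8% of all genes rose and 10.6% fell with sh#1 and 19.5% and 18.8% with sh#2. The same 3 genes, INSIG1, INSIG2 and SREBF1, passed with the hairpins pooled. INSIG2 stood at 4.72, 3.69 and 7.62 CPM in shCtrl cells, 34.9, 25.2 and 30.3 in sh#1 cells and 54.1, 51.1 and 52.1 in sh#2 cells. No KD library overlapped shCtrl, and the sh#2 libraries lay above those of sh#1. INSIG2 rose by 2.47 (SE 0.22, q = 1.8e-13) with sh#1 and 3.27 (SE 0.21, q = 7.7e-20) with sh#2, and the difference between the hairpins, -0.80 (SE 0.15, q = 3.1e-05), passed the test too. Both calls held in each of the 13 alternatives that kept the gene.

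INSIG1 stood at 70.1, 78.7 and 70.9 CPM in shCtrl cells, 102, 102 and 89.1 in sh#1 cells and 112, 112 and 109 in sh#2 cells. No KD library overlapped shCtrl. The log2 fold changes were 0.41 (SE 0.10, q = 0.0012) and 0.60 (SE 0.10, q = 1.3e-06), and the hairpins differed by -0.19 (95% interval -0.38 to -0.01, q = 0.13), which did not pass the test. Both INSIG proteins restrain SREBP processing, and their transcripts moved the same way.

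SREBF1 stood at 50.4, 47.6 and 53.4 CPM in shCtrl cells, 39.8, 38.2 and 40.9 in sh#1 cells and 28.5, 29.1 and 24.3 in sh#2 cells. The groups formed steps that did not overlap, shCtrl highest and sh#2 lowest. SREBF1 fell, at -0.88 (SE 0.14, q = 9.5e-07) with sh#2 and -0.35 (SE 0.13, q = 0.041) with sh#1, with a difference between hairpins of 0.54 (SE 0.15, q = 0.0046). Its call with sh#1 was lost in 7 of 14 alternatives (under DESeq2, no count filter, without sh#1 replicates 1, 2 or 3, shCtrl replicates 1 or 3), its log2 fold changes running from -0.39 to -0.30. Its exons share 556 bases with RAI1 on the other strand, which had 0 to 5 counts in culture.

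SREBF2 and SCAP passed no test in culture. SREBF2 stood at 51.6, 60.3 and 55.6 CPM in shCtrl cells, 52.1, 51.7 and 39.1 in sh#1 cells and 52.7, 50.6 and 56.5 in sh#2 cells, with log2 fold changes of -0.24 (q = 0.18) and -0.07 (q = 0.72). SCAP stood at 63.8, 64.8 and 59.8 CPM in shCtrl cells, 64.8, 66.5 and 62.7 in sh#1 cells and 65.8, 63.1 and 51.6 in sh#2 cells, and its values were 0.04 (95% interval -0.18 to 0.26) and -0.06 (95% interval -0.29 to 0.17). Of the SREBP genes, then, SREBF1 passed the test and SREBF2 did not.

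**Figure D2:**
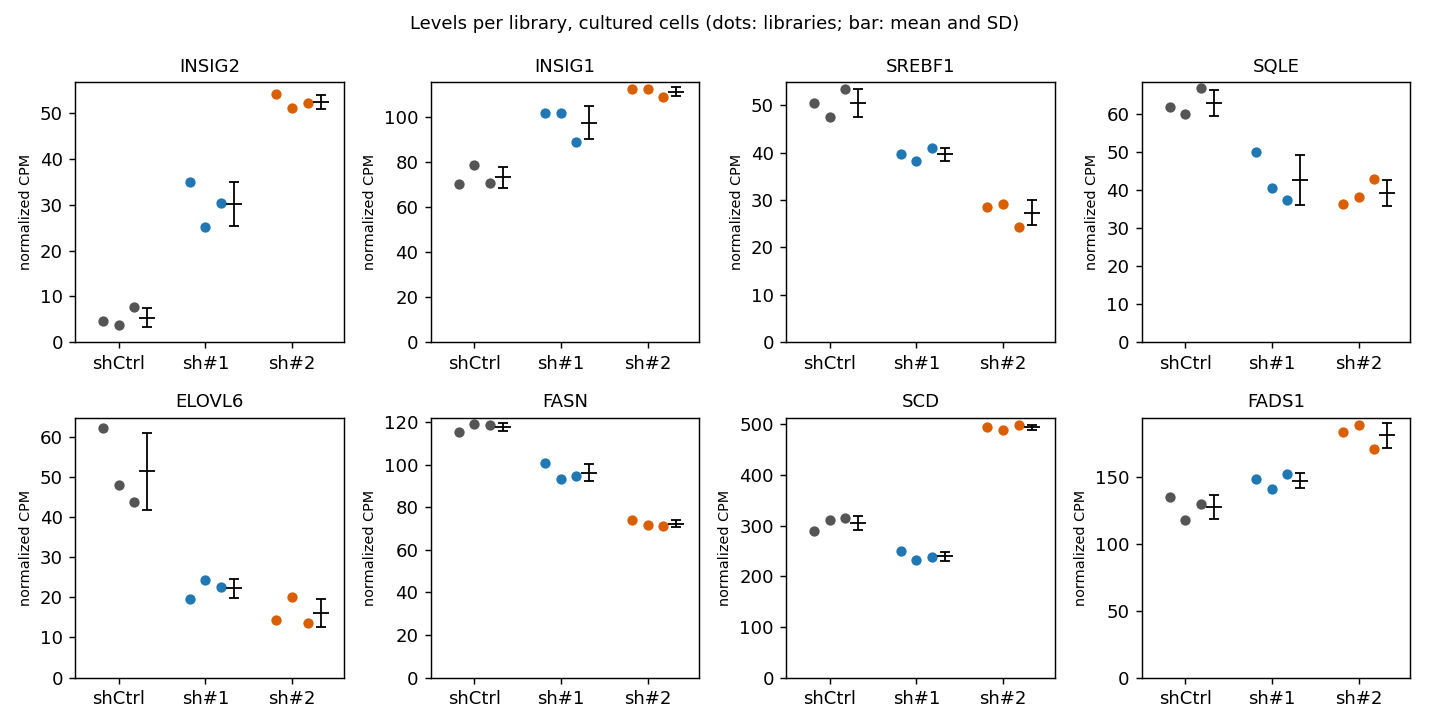
Normalized CPM (y axis, from 0) of 8 genes in each cultured library (dots) of shCtrl, sh#1 and sh#2, with the mean and SD of 3 libraries beside them. SREBF1 and FASN step down and FADS1 steps up from shCtrl over sh#1 to sh#2, and SCD is lowest in sh#1 and highest in sh#2.

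Of the 18 sterol genes tested, 3 rose and 2 fell with sh#1, close to the shares over all genes, and 9 rose and 2 fell with sh#2. The median over these genes was -0.05 with sh#1 and 0.29 with sh#2, beside medians of all genes at -0.01 in both. With the hairpins pooled (CDH11 KD, n = 6) 4 rose (IDI1, CYP51A1, HSD17B7 and SC5D) and 1 fell (SQLE), where 9.12% of all genes rose and 8.32% fell. The count of 9 with sh#2 was 4 without sh#2 replicate 2, 5 without shCtrl replicate 1 and 5 with DESeq2, and the pooled count of 4 was 0 without shCtrl replicate 1 or 2, and 2 when shCtrl replicate 3, sh#2 replicate 1 or sh#2 replicate 2 was left out. The count of 3 with sh#1 was 1 without sh#1 replicate 1 or 3 or shCtrl replicate 1, and 0 with DESeq2, and the count of 2 that fell with sh#1 was 1 without sh#1 replicate 3. Over all genes 1162 rose with sh#1, and 999, 909, 1022 and 754 in these fits. The 1047 that fell with sh#1 were 798 without sh#1 replicate 3. With LSS past the threshold, the pooled count that fell was 2 without sh#1 replicate 2 or sh#2 replicate 3.

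The steps from acetyl-CoA to mevalonate and on to farnesyl diphosphate held few calls. ACAT2, which joins acetyl-CoA units, stood at 207, 210.3 and 227 CPM in shCtrl, 197, 194 and 232 in sh#1 and 222, 252 and 281 in sh#2 cells, and rose with sh#2 by 0.23 (SE 0.08, q = 0.020), although the groups overlapped. That call was lost in 6 of 14 alternatives (under DESeq2, upper quartile normalization, without sh#2 replicates 2 or 3, shCtrl replicates 1 or 2), its log2 fold changes running from 0.14 to 0.31, and 454 of its exon bases are shared with TCP1 on the other strand. The synthase HMGCS1 and the enzymes MVK, PMVK, MVD and FDPS passed no test, with log2 fold changes from -0.34 to 0.38 over both hairpins. PMVK, a mevalonate pathway kinase, lay below every shCtrl library in all 6 KD libraries, at -0.28 with sh#1 (q = 0.31) and -0.34 with sh#2 (q = 0.17).

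IDI1, which makes dimethylallyl diphosphate, rose with both hairpins. IDI1 stood at 21.3, 29.1 and 30.9 CPM in shCtrl cells, 41.4, 32.6 and 41.2 in sh#1 cells and 36.4, 43.96 and 32.6 in sh#2 cells, so all KD libraries were above shCtrl. It rose by 0.51 (SE 0.15, q = 0.012) and 0.48 (SE 0.16, q = 0.015), with no difference between the hairpins beyond error (0.03, 95% interval -0.26 to 0.33). The sh#1 call was lost in 4 of 14 alternatives (under DESeq2, without sh#1 replicates 1 or 3, shCtrl replicate 1), its log2 fold changes running from 0.36 to 0.62. With sh#2 the call was lost in 3 of 14 alternatives (under DESeq2, without sh#2 replicate 2, shCtrl replicate 1), its log2 fold changes running from 0.33 to 0.58.

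At the entry into sterols, consecutive enzymes went different ways. FDFT1, squalene synthase, stood at 141, 141 and 147 CPM in shCtrl, 139, 132 and 131 in sh#1 and 156, 184 and 173 in sh#2 cells, below the shCtrl range with sh#1 and above it with sh#2. It rose with sh#2 by 0.26 (SE 0.08, q = 0.0081) and was at -0.09 (SE 0.08, q = 0.45) with sh#1, and the hairpins differed by -0.36 (SE 0.08, q = 0.00070). Without sh#2 replicate 2 its sh#2 call was lost, with log2 fold changes from 0.21 to 0.33 over 14 alternatives.

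SQLE, the squalene epoxidase that controls flux into sterols, fell with both. SQLE stood at 61.8, 59.9 and 66.7 CPM in shCtrl cells, 50.02, 40.4 and 37.3 in sh#1 cells and 36.4, 38.2 and 42.9 in sh#2 cells, all KD libraries below shCtrl. The falls were -0.57 (SE 0.12, q = 0.00044) and -0.68 (SE 0.13, q = 2.6e-05), kept in each of 14 alternatives, and the hairpins differed by 0.12 (95% interval -0.16 to 0.39). LSS, which closes the ring of lanosterol, stood at 22.04, 26.7 and 24.8 CPM in shCtrl, 16.4, 19.1 and 9.51 in sh#1 and 18.7, 11.9 and 20.9 in sh#2 cells. It fell, at -0.73 (SE 0.21, q = 0.0075) and -0.51 (SE 0.21, q = 0.049). The sh#2 call of LSS was lost in 8 of 14 alternatives (under DESeq2, the replicate number as a block, without sh#1 replicates 1 or 2, sh#2 replicates 1 or 2, shCtrl replicates 2 or 3), its log2 fold changes running from -0.67 to -0.30. Its sh#1 call was lost in 2 of 14 alternatives (under DESeq2, without sh#1 replicate 3), its log2 fold changes running from -0.93 to -0.46.

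The listed enzymes after lanosterol that passed a test against shCtrl were all higher. CYP51A1, lanosterol demethylase, stood at 102, 88.6 and 111 CPM in shCtrl, 133, 117 and 123 in sh#1 and 141, 117 and 124 in sh#2 cells, and rose by 0.30 (SE 0.09, q = 0.012) and 0.34 (SE 0.09, q = 0.0032). SC5D stood at 21.6, 22.96 and 28.2 CPM in shCtrl cells, 31.2, 33.9 and 39.1 in sh#1 cells and 35.5, 34.9 and 38.96 in sh#2 cells, and this desaturase rose by 0.52 (SE 0.15, q = 0.0098) and 0.58 (SE 0.16, q = 0.0025). For both genes no KD library overlapped shCtrl. The sh#1 call of CYP51A1 was lost in 3 of 14 alternatives (under DESeq2, without sh#1 replicate 1, shCtrl replicate 2), its log2 fold changes running from 0.22 to 0.39. For SC5D the sh#1 call was lost in 3 of 14 alternatives (under DESeq2, without sh#1 replicate 3, shCtrl replicate 1), its log2 fold changes running from 0.42 to 0.65. Annotated genes ENSG00000285772 and ENSG00000289027 share 2844 and 2827 exon bases with CYP51A1 on its own strand.

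With sh#2 alone the C4 demethylation enzymes rose as well. MSMO1 stood at 65.7, 59.9 and 66.7 CPM in shCtrl cells, 71.3, 74.8 and 73.6 in sh#1 cells and 81.7, 82.2 and 90.6 in sh#2 cells, and it rose by 0.40 (SE 0.11, q = 0.0019). NSDHL stood at 40.9, 42.2 and 41.9 CPM in shCtrl cells, 47.2, 41.7 and 39.8 in sh#1 cells and 53.7, 56.9 and 49.2 in sh#2 cells, and it rose by 0.35 (SE 0.13, q = 0.025). HSD17B7 stood at 3.94, 4.10 and 2.29 CPM in shCtrl cells, 4.51, 6.09 and 6.34 in sh#1 cells and 8.40, 7.17 and 9.25 in sh#2 cells, a rise of 1.26 (SE 0.36, q = 0.0036) on 15 to 19 counts per sh#2 library against 6 to 10 in shCtrl. With sh#1 their values were 0.19, 0.04 and 0.72 (q = 0.20, 0.88 and 0.17), and the differences between hairpins did not pass the test (q = 0.14, 0.064 and 0.23), so a rise with sh#2 alone was not shown to be particular to it. The NSDHL call was lost in 5 of 14 alternatives (under DESeq2, without sh#2 replicates 1 or 2, shCtrl replicates 1 or 3), its log2 fold changes running from 0.31 to 0.41.

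The isomerase EBP stood at 35.8, 37.7 and 30.9 CPM in shCtrl, 25.01, 29.99 and 43.7 in sh#1 and 45.3, 48.3 and 41.4 in sh#2 cells and rose with sh#2 by 0.37 (SE 0.15, q = 0.050), at the edge of the threshold. That call was lost in 11 of 14 alternatives (under DESeq2, the stricter count filter, the replicate number as a block, upper quartile normalization, without sh#1 replicate 2, sh#2 replicates 1, 2 or 3, shCtrl replicates 1, 2 or 3), its log2 fold changes running from 0.29 to 0.43. DHCR7, which makes cholesterol from 7-dehydrocholesterol, stood at 102, 108 and 98.3 CPM in shCtrl, 92.3, 99.5 and 65.9 in sh#1 and 102, 109 and 119 in sh#2 cells. It passed the test between the hairpins alone, at -0.37 (SE 0.11, q = 0.010), lower with sh#1, and that call was lost without sh#1 replicate 3 or sh#2 replicate 3, with values from -0.49 to -0.20. The carrier STARD4 ranged from 11.9 to 21.4 CPM and passed no test.

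Of the 8 fatty acid genes, 0 rose and 3 fell with sh#1 (11.8% and 10.6% over all genes) and 3 rose and 3 fell with sh#2 (19.5% and 18.8%). The pooled counts were 1 higher (FADS1) and 3 lower (FASN, ACACA and ELOVL6), where 9.12% and 8.32% of all genes were called, with medians of -0.31 for sh#1, 0.07 for sh#2 and -0.14 for CDH11 KD. Without shCtrl replicate 2 or 3 the pooled count of genes that fell was 1, and without shCtrl replicate 1, 2 or 3 the count that rose was 0. Over all genes 460 of 10030 and 424 of 10006 fell without shCtrl replicate 2 or 3, beside 820 of 9859 with every library. The pooled call of ACACA (q = 0.045) was lost in 9 of 15 alternatives, its log2 fold changes running from -0.66 to -0.44. These were DESeq2, the replicate number as a block, and the fits without sh#1 replicate 3, sh#2 replicates 1, 2 or 3, or shCtrl replicates 1, 2 or 3. With sh#1 the count that rose was 1 (FADS1) without sh#2 replicate 1 or 3 or shCtrl replicate 1, and DESeq2, like edgeR, called 0. At an unadjusted p of 0.05, 6 of 8 genes passed in either direction with sh#1. The share of all genes at that cutoff was not counted, here or in tumors, so such counts are not read as results.

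ELOVL6, which lengthens palmitate to stearate, fell most. ELOVL6 stood at 62.2, 47.97 and 43.8 CPM in shCtrl cells, 19.7, 24.3 and 22.5 in sh#1 cells and 14.5, 20.1 and 13.6 in sh#2 cells. No KD library reached the lowest shCtrl library, while the hairpins overlapped. ELOVL6 fell, at -1.21 (SE 0.15, q = 1.3e-08) and -1.67 (SE 0.17, q = 7.4e-12), and the difference between hairpins was 0.46 (q = 0.080). Both calls against shCtrl were kept in each of 14 alternatives.

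FASN, the synthase that builds palmitate, fell in steps. FASN stood at 115, 119 and 119 CPM in shCtrl cells, 101, 93.5 and 94.4 in sh#1 cells and 74.2, 71.7 and 71.1 in sh#2 cells. The groups were well apart, with sh#2 lowest. FASN fell, at -0.29 (SE 0.09, q = 0.013) and -0.70 (SE 0.10, q = 2.7e-08), and the hairpins differed by 0.41 (SE 0.10, q = 0.0012). Its sh#1 call was lost in 3 of 14 alternatives (under DESeq2, without sh#1 replicates 2 or 3), its log2 fold changes running from -0.32 to -0.27.

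ACACA, the carboxylase that makes malonyl-CoA, stood at 33.1, 28.3 and 38.5 CPM in shCtrl, 29.5, 27.4 and 22.9 in sh#1 and 16.8, 22.5 and 15.6 in sh#2 cells. It fell with sh#2, at -0.87 (SE 0.18, q = 8.1e-05) and was at -0.33 (SE 0.16, q = 0.13) with sh#1. The hairpins differed by 0.53 (SE 0.19, q = 0.029), a call that was lost in 5 of 14 alternatives (under DESeq2, without sh#1 replicates 1 or 2, sh#2 replicates 1 or 3), its log2 fold changes running from 0.43 to 0.71. ACLY, which supplies cytosolic acetyl-CoA, stood at 102, 119.7 and 122 CPM in shCtrl, 110.3, 117 and 125 in sh#1 and 129, 154 and 138 in sh#2 cells, and went the other way, rising with sh#2 by 0.29 (SE 0.09, q = 0.0078). That call was lost without sh#2 replicate 2 or shCtrl replicate 1, with values from 0.21 to 0.35.

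SCD, the desaturase that makes oleate, separated the hairpins. SCD stood at 289, 310.0 and 315 CPM in shCtrl cells, 249, 231 and 238 in sh#1 cells and 495, 488 and 499 in sh#2 cells. No group overlapped another. SCD fell with sh#1, at -0.35 (SE 0.07, q = 5.4e-05) and rose with sh#2 by 0.70 (SE 0.06, q = 1.3e-13), a difference between hairpins of -1.04 (SE 0.06, q = 2.2e-19), kept in each of 14 alternatives. With the hairpins pooled SCD was at 0.26 (SE 0.33, q = 0.63).

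FADS1 stood at 135, 117 and 129 CPM in shCtrl cells, 148, 141 and 152 in sh#1 cells and 183, 189 and 170.4 in sh#2 cells. FADS1 makes arachidonate and EPA from their precursors, and its levels formed steps that did not overlap, shCtrl lowest. GENCODE places the gene on the minus strand of chromosome 11, with 61799627 as its start and 61829318 as its end in hg38. FADS1 was at 0.51 (SE 0.08, q = 9.6e-07) with sh#2, 0.21 (SE 0.08, q = 0.054) with sh#1, just short of the threshold, and 0.37 (SE 0.11, q = 0.026) pooled. The difference between hairpins was -0.30 (SE 0.08, q = 0.0040). The pooled call was lost in 4 of 15 alternatives (under the replicate number as a block, without shCtrl replicates 1, 2 or 3), its log2 fold changes running from 0.31 to 0.41.

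The remaining members of this branch were FADS2 and ELOVL5. FADS2, the desaturase ahead of FADS1 in the same route, had 15 to 28 counts per library and passed no test. It shares 490 exon bases with FADS1 on the other strand, and whether the counting used strand is not stated in the sources used here. ELOVL5, the elongase of polyunsaturated fatty acids, stood at 105, 91.4 and 86.9 CPM in shCtrl, 67.2, 95.2 and 75.03 in sh#1 and 110.1, 101 and 96.4 in sh#2 cells. It passed the test between the hairpins alone, -0.38 (SE 0.11, q = 0.0067), and that call was lost without sh#1 replicate 1, with values from -0.53 to -0.28.

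Between the hairpins, 0 sterol genes were higher with sh#1 by edgeR or DESeq2 and 4 were lower, and 2 fatty acid genes were higher and 4 lower, where 11.2% of all genes were higher and 13.5% lower. The sterol genes were ACAT2, FDFT1, EBP and DHCR7, and the fatty acid genes FASN and ACACA, higher, and ACLY, SCD, FADS1 and ELOVL5, lower. The count of fatty acid genes higher was 1 without sh#1 replicate 1 or 2 or sh#2 replicate 1 or 3, and 3 without sh#2 replicate 2. Without sh#2 replicate 3 the count of sterol genes was 2, and without sh#1 replicate 1 the count of fatty acid genes lower was 2. The call of ACAT2 was lost in 3 of 14 alternatives (without sh#1 replicates 1 or 2, sh#2 replicate 3), its log2 fold changes running from -0.36 to -0.19, and that of EBP was lost in 5 of 14 alternatives (under DESeq2, without sh#1 replicates 1 or 2, sh#2 replicates 1 or 2), its log2 fold changes running from -0.71 to -0.27. For ACLY the call was lost in 6 of 14 alternatives (under DESeq2, upper quartile normalization, without sh#1 replicates 1 or 2, sh#2 replicates 2 or 3), its log2 fold changes running from -0.31 to -0.18.

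As a description with no test, each library's mean over a branch of log2(CPM + 1) was taken relative to the shCtrl mean. The 18 sterol genes lay at -0.03, 0.04 and -0.03 in the sh#1 and 0.16, 0.19 and 0.21 in the sh#2 libraries, with shCtrl at -0.03, 0.04 and -0.01. The 8 fatty acid genes lay at -0.34, -0.26 and -0.34 in sh#1, -0.22, -0.06 and -0.28 in sh#2 and 0.07, -0.07 and -0.0005 in shCtrl. The sterol mean thus separated sh#2 from the other groups, while the fatty acid mean was lower in all sh#1 libraries than in shCtrl and overlapped shCtrl with sh#2.

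**Figure D3:**
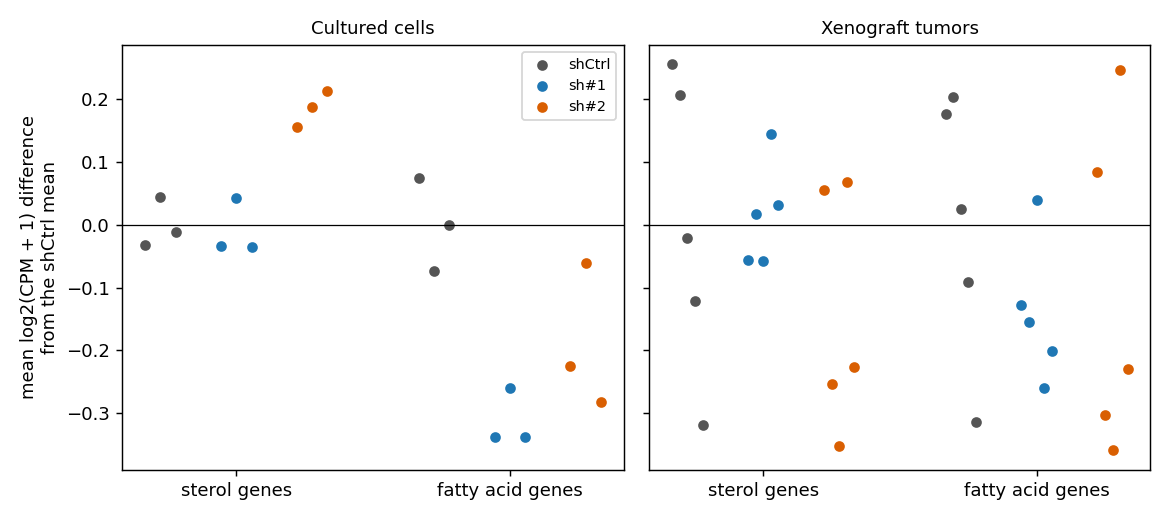
Mean over the sterol or fatty acid genes tested of log2(CPM + 1) relative to the shCtrl mean (y axis) in each library or tumor (dots), in culture (left) and tumors (right). In culture the 3 sh#2 dots of the sterol genes lie above all others of that branch, and in the tumors the groups of both branches overlap.

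Other genes of the pathways, which were not members, were counted in the same fits. Of 22 other sterol genes tested 2 rose and 3 fell with sh#1 and 3 rose and 6 fell with sh#2, and of 20 other fatty acid genes 1 rose and 4 fell and 2 rose and 6 fell. Over all genes 11.8% rose and 10.6% fell with sh#1 and 19.5% and 18.8% with sh#2. With both hairpins 2 of these genes rose and 4 fell, where 8.35% and 6.6% of all genes did. MYLIP, a ubiquitin ligase that targets lipoprotein receptors, fell from 19 to 29 counts in shCtrl to 5 to 7 in sh#1 and 6 to 8 in sh#2 libraries, at -1.93 (SE 0.36, q = 3.2e-05) and -1.53 (SE 0.35, q = 0.00039). The elongase ELOVL1 fell, at -0.45 (SE 0.14, q = 0.0099) and -0.56 (SE 0.14, q = 0.0012). FNTA, a subunit of the protein prenyltransferases, rose by 0.47 (SE 0.12, q = 0.0018) and 0.72 (SE 0.12, q = 1.1e-06), and LPIN1, a phosphatidate phosphatase, by 0.37 (SE 0.12, q = 0.020) and 0.36 (SE 0.12, q = 0.017).

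In the tumors 3 genes of the list passed the test. FADS1 fell with both hairpins, as did 0.305% of all genes, HSD17B7 rose with sh#1, IDI1 fell with sh#2, and the other 25 genes tested passed no test. The filter left 28 of 32 genes, without ACAT2, CYP51A1, TM7SF2 and FADS2. CYP51A1 had 0 to 3 counts in any tumor, where the cultured libraries, mapped with another tool, had 216 to 349. Tumor libraries were shallower, but standard errors were not larger in tumors for every gene. With sh#1 and sh#2, those of INSIG2 were 0.31 and 0.33 in tumors and 0.22 and 0.21 in culture. Those of HSD17B7 were 0.31 and 0.35 in tumors and 0.37 and 0.36 in culture.

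**Figure D4:**
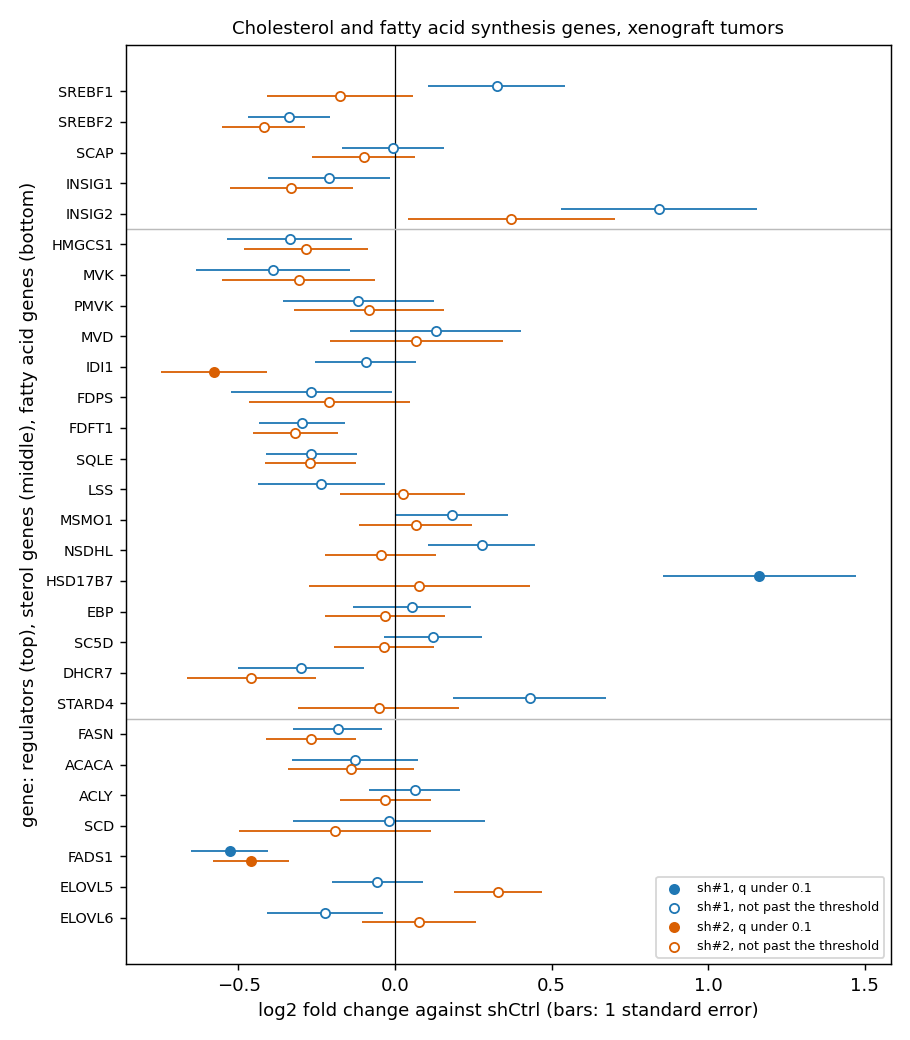
Log2 fold change against shCtrl (x axis, bars show 1 standard error) of the 28 genes tested in xenograft tumors (y axis), with sh#1 in blue and sh#2 in orange and filled points at q under 0.1. FADS1 is the gene with filled points for both hairpins, at -0.53 and -0.46.

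Of the 7 fatty acid genes tested, 1 fell in CDH11 KD tumors, with sh#1 and with sh#2, and 0 rose. Over all genes 0.697% rose and 0.817% fell in CDH11 KD, 0.773% and 0.708% with sh#1 and 1.36% and 1.32% with sh#2. FADS1 stood at 260.0, 266, 241, 238 and 202 CPM in the shCtrl tumors, 158, 184, 167, 184 and 144 in the sh#1 tumors and 179, 153, 148, 219.8 and 179.5 in the sh#2 tumors. All 10 KD tumors lay below the shCtrl mean, the sh#1 tumors below every shCtrl tumor, and among sh#2 tumors number 4 reached into the shCtrl range. FADS1 fell, at -0.49 (SE 0.10, q = 0.012) pooled, -0.53 (SE 0.12, q = 0.021) with sh#1 and -0.46 (SE 0.12, q = 0.044) with sh#2. The hairpins differed by -0.07 (95% interval -0.32 to 0.18).

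The pooled FADS1 call held in each of 23 alternatives, with values from -0.56 to -0.46, and was -0.48 without sh#1 tumor 1, -0.56 without shCtrl tumor 5 and -0.47 with the mouse-to-human ratio as a covariate. The sh#1 call of FADS1 was lost in 1 of 22 alternatives (without sh#1 tumor 5), its log2 fold changes running from -0.59 to -0.48. The sh#2 call was lost in 5 of 22 alternatives (under the mouse-to-human ratio as a covariate, without sh#2 tumors 2 or 3, shCtrl tumors 1 or 2), its log2 fold changes running from -0.57 to -0.41. Mouse Fads1 had 0 to 12 counts per tumor, beside 57 to 324 of human FADS1. How human and mouse reads were separated is not stated in the sources used here, and in bulk tumors fewer cells of a type and less RNA per cell cannot be told apart.

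The deposited values of FADS1 ran in opposite directions in the systems. In culture all 6 KD libraries lay above the shCtrl mean and in tumors all 10 lay below, but the tables were made and normalized separately, so the difference between systems was not tested. Over the 9 cultured libraries, the genes whose log2 CPM was most like that of FADS1, among 5396 genes averaging 50 counts or more, were SPAG4 (Pearson r = 0.978), TYMS (0.977), MTCH2 (0.974), SCAPER (0.973) and PAQR5 (0.972). These libraries form 3 groups, and the likeness is a description with no test.

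**Figure D5:**
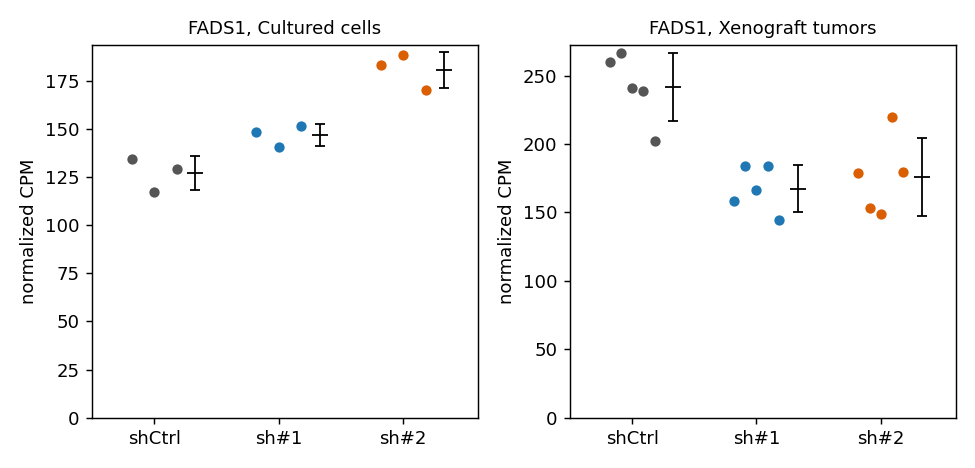
Normalized CPM of FADS1 (y axis, from 0) in each cultured library (left) and each tumor (right), with the mean and SD of each group beside the dots. The KD libraries lie above shCtrl in culture, and the KD tumors lie below the shCtrl mean, with 1 sh#2 tumor in the shCtrl range.

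The sterol genes gave 0 calls in CDH11 KD tumors among 16 tested with edgeR, 1 gene higher with sh#1 and 1 lower with sh#2. At an unadjusted p of 0.05 (share of all genes not counted), 5, 2 and 3 of them passed in the same order, and DESeq2 called 0 in CDH11 KD. HSD17B7 stood at 7.22, 8.65, 9.12, 5.34 and 13.8 CPM in the shCtrl tumors, 27.7, 13.6, 16.97, 19.6 and 21.2 in the sh#1 tumors and 14.2, 10.7, 6.70, 8.54 and 3.82 in the sh#2 tumors. It rose with sh#1 by 1.16 (SE 0.31, q = 0.059), a call that was lost in 6 of 21 alternatives (under the mouse-to-human ratio as a covariate, without sh#1 tumors 1 or 5, shCtrl tumors 1, 2 or 4), its log2 fold changes running from 1.02 to 1.33. Its pseudogene HSD17B7P2 had 2 to 9 counts per tumor, so shared reads are uncertain.

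IDI1 stood at 63.4, 77.9, 62.7, 58.7 and 42.9 CPM in the shCtrl tumors, 49.9, 65.6, 53.03, 58.7 and 58.6 in the sh#1 tumors and 34.1, 42.99, 35.4, 50.2 and 43.9 in the sh#2 tumors. It fell with sh#2, at -0.58 (SE 0.17, q = 0.075), with the lowest shCtrl tumor, number 5, inside the sh#2 range. With sh#1 IDI1 was at -0.09 (SE 0.16, q = 0.88), and the hairpins differed by 0.48 (q = 0.26). The sh#2 call was lost in 9 of 22 alternatives (under DESeq2, the mouse-to-human ratio as a covariate, without sh#2 tumors 1, 2 or 3, shCtrl tumors 1, 2, 3 or 4), its log2 fold changes running from -0.68 to -0.48.

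Several sterol genes lay on the low side without passing the test. FDFT1 was at -0.31 (q = 0.25) and SQLE at -0.27 (q = 0.36) in CDH11 KD, each with 9 of 10 KD tumors below the shCtrl mean. Without shCtrl tumor 5, FDFT1 passed at -0.39 (q = 0.067), and with sh#1 tumor 1 left out as well at -0.38 (q = 0.071). With both of these tumors left out the sterol genes lower were 1 pooled and 3 with sh#2 (FDFT1, IDI1 and DHCR7), and over all genes the share lower was higher in these fits too, 2.36% pooled and 3.72% with sh#2. The median over the 16 genes was -0.10 pooled, beside 0.01 over all genes.

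None of the 5 regulators passed the test in any tumor contrast of edgeR, and DESeq2 called 1, SREBF2. At an unadjusted p under 0.05 (share of all genes not counted) there were 2 of 5 in CDH11 KD. SREBF2 stood at 119, 125, 111, 103 and 113 CPM in the shCtrl tumors, 91.6, 94.9, 91.2, 76.1 and 97.98 in the sh#1 tumors and 83.9, 79.3, 68.96, 100.3 and 97.4 in the sh#2 tumors. All 10 KD tumors lay below all 5 shCtrl tumors. SREBF2 was at -0.38 (SE 0.11, q = 0.11) pooled, -0.34 (SE 0.13, q = 0.27) with sh#1 and -0.42 (SE 0.13, q = 0.11) with sh#2, short of the threshold. Pooled, it passed with DESeq2 (q = 0.097), in the fit of 3 groups (0.084), with upper quartile normalization (0.094), with at least 10 counts in every library (0.083) and without sh#2 tumor 4 (0.091), shCtrl tumor 5 (0.072), or both shCtrl tumor 5 and sh#1 tumor 1 (0.067), at values from -0.41 to -0.38. With sh#2 it passed with upper quartile normalization, with at least 10 counts in every library and without sh#1 tumor 1, sh#2 tumor 4, sh#2 tumor 5, shCtrl tumor 5 or both shCtrl tumor 5 and sh#1 tumor 1, at values from -0.50 to -0.42.

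The regulators that moved most in culture were not called in tumors. INSIG2 stood at 9.63, 10.8, 12.5, 8.004 and 9.19 CPM in the shCtrl tumors, 44.4, 13.6, 18.03, 15.2 and 12.1 in the sh#1 tumors and 9.95, 10.7, 13.4, 12.8 and 19.1 in the sh#2 tumors, with 0.84 (SE 0.31, q = 0.24) for sh#1 and 0.37 (SE 0.33, q = 0.67) for sh#2. With the hairpins pooled INSIG2 was at 0.63 (SE 0.29, q = 0.35), which did not pass the test. Of the 10 KD tumors, 9 lay above the shCtrl mean of INSIG2 and 1 below, on the side of its rise in culture. Tumor 1 of sh#1, with 16 counts of INSIG2, was far above the rest. INSIG1 stood at 104, 128, 162, 109 and 59.7 CPM in the shCtrl tumors, 114, 123, 89.1, 89.2 and 81.8 in the sh#1 tumors and 86.7, 84.6, 70.9, 126 and 80.2 in the sh#2 tumors, and its pooled value was -0.27 (SE 0.16, q = 0.52). Without shCtrl tumor 5 and sh#1 tumor 1, INSIG1 passed pooled at -0.44 (q = 0.090) and with sh#2 at -0.48 (q = 0.087), and without shCtrl tumor 5 alone it passed with sh#2 at -0.48 (q = 0.095). The groups of INSIG1 overlapped, as did those of INSIG2, SREBF1 and SCAP.

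SREBF1 stood at 33.7, 18.4, 34.2, 32.02 and 27.6 CPM in the shCtrl tumors, 33.3, 30.5, 42.4, 34.8 and 41.4 in the sh#1 tumors and 21.3, 20.2, 15.3, 38.4 and 38.2 in the sh#2 tumors, with 0.32 (q = 0.60) and -0.18 (q = 0.80). SCAP stood at 79.4, 83.3, 67.3, 68.5 and 58.2 CPM in the shCtrl tumors, 74.9, 68.95, 56.2, 73.9 and 84.8 in the sh#1 tumors and 98.1, 63.1, 67.04, 56.6 and 49.7 in the sh#2 tumors, with -0.05 pooled (95% interval -0.33 to 0.22).

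ELOVL6 and FASN, which fell with both hairpins in culture, passed no test in tumors. ELOVL6 was at -0.22 (95% interval -0.59 to 0.14) and 0.08 (95% interval -0.28 to 0.43), and FASN at -0.18 (95% interval -0.46 to 0.10) and -0.27 (95% interval -0.55 to 0.01). SCD ran from 84.3 to 296 CPM, both extremes among sh#2 tumors. ELOVL5 lay above every shCtrl tumor in all 5 sh#2 tumors, at 0.33 (SE 0.14, q = 0.27), which did not pass the test.

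Between the hairpins in tumors, 0.642% of all genes were higher and 0.544% lower with sh#1, and 0 of the 28 members passed in either direction with edgeR or DESeq2. At an unadjusted p of 0.05 (share of all genes not counted), 4 did (2 sterol genes, 1 fatty acid gene and 1 regulator). With the mouse-to-human ratio as a covariate HSD17B7 was called higher with sh#1 (1.12, q = 0.097). Of the 38 other pathway genes tested 0 passed the test of edgeR or DESeq2 in any tumor contrast. At an unadjusted p under 0.05 (share of all genes not counted) there were 2 in CDH11 KD.

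Host fat can carry these transcripts, so mouse adipocyte markers were read in the same tumors. All 8 of 8 markers were in the table, and their summed level ranged from 218 to 1473 mouse CPM in shCtrl, 421 to 15540.5 in sh#1 and 271 to 3110.3 in sh#2 tumors. The highest value was that of sh#1 tumor 1, and without it the sh#1 tumors reached 1540.5. Fabp4 (4 to 1258 counts), Lpl (11 to 258) and Cd36 (9 to 95) were present in every tumor. Leptin (Lep) was at 0 in 12 of 15 tumors, Plin1 in 8, Cidec in 7, Adipoq in 4 and Car3 in 3. The summed mouse counterparts of the listed genes ranged from 489 to 787 mouse CPM in shCtrl, 315 to 6523 in sh#1 and 379 to 1485 in sh#2 tumors, and the other sh#1 tumors reached 1022. Their part in the human values was not tested beyond the fits with the mouse-to-human ratio and without sh#1 tumor 1 given above.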

How the data were processed

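The authors deposited unnormalized counts of reads per gene. For cultured cells, reads were trimmed in CLC Genomics Workbench and mapped to hg38 with RaNAseq, and for tumors they were trimmed with trim galore and mapped to hg38 with HISAT2. The counting tool, annotation version and use of strand or molecular identifiers are not given in the sources used here. From the deposited counts, 9859 cultured and 9184 tumor genes passed filterByExpr and were tested with edgeR 4.0.16 in R 4.3.3 (TMM, robust quasi-likelihood fit, Benjamini-Hochberg adjustment). The pooled contrast set sh#1 and sh#2 libraries together against shCtrl, and a fit of 3 groups gave each hairpin. The gene list, the pathway lists and the motifs were chosen with earlier results of these data known. Every gene of the list was accounted for. Values for every sample were given for FADS1, the regulators and each gene called in at least 1 contrast, and other pathway genes were named where called with both hairpins, up to 5 per system. Some results of other pathway genes are not reported here. The q thresholds of 0.05 and 0.1 follow the study. For its enrichment analysis of cultured cells the study also set a cutoff on the log2 fold change, which was not used here. In all, 39 pairs of replicates were compared and 0 agreed within sampling noise, and p-values measure the spread between these libraries. Alternatives were DESeq2 1.42.0, upper quartile normalization, other count filters, a replicate block, 3 groups, the mouse-to-human ratio as a covariate and leaving out each library. Leaving out 2 tumors together was added after seeing the data. Of the genes listed for cultured cells, 13 are not analysed here. A deposited barcode list served to read the library mixes.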

Additional observations from a re-analysis of the deposited data

Results flagged for a closer look

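Among 84 groups of 5 tumors examined for the listed genes, 3 had a tumor far from the rest, where chance gives about 1 in 20 groups. ELOVL6 was at 44.4 CPM in shCtrl tumor 5, with the other shCtrl tumors at 77.4 to 89.9. INSIG1 was at 125.9 CPM in sh#2 tumor 4, with the others of that group at 70.9 to 86.7. INSIG2 was at 44.4 CPM in sh#1 tumor 1, with the others at 12.1 to 18.03.

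FADS1 went in opposite directions in the systems, with a log2 fold change in CDH11 KD of 0.37 in culture, where all 6 KD libraries lay above the shCtrl mean, and of -0.49 in tumors, where all 10 lay below. This difference was not tested, because the tables were normalized separately.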

How the results depend on the processing

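No result changed sign with a call under any alternative run. Of the 55 calls made for the listed genes over the 4 cultured contrasts, DESeq2 kept 39, the replicate block 49, upper quartile normalization 50 and no count filter 53, and of 5 tumor calls DESeq2 kept 4, the replicate block 5 and the mouse-to-human covariate 2. Deviations from the group means in same-numbered libraries had correlations of -0.005 to 0.055 over 9 cultured pairs and -0.096 to 0.126 over 15 tumor pairs. Differently numbered libraries had -0.055 to 0.044 in culture and -0.192 to 0.187 in tumors. These ranges overlap, and they do not settle whether replicate numbers pair the samples. In culture, pooled sterol genes higher went from 4 to 2 with the replicate block or upper quartile normalization, sterol genes lower from 1 to 2 with 3 groups, at least 10 counts, no count filter or upper quartile normalization, and fatty acid genes higher from 1 to 2 with 3 groups and to 0 with the replicate block. The pooled ACACA call was lost with DESeq2 and with the replicate block. With sh#1, sterol genes higher went from 3 to 0 and lower from 2 to 1 with DESeq2, and fatty acid genes higher from 0 to 1 with no count filter. With sh#2, sterol genes higher went from 9 to 5 with DESeq2 and lower from 2 to 1 with DESeq2 or the replicate block. Between hairpins, fatty acid genes higher went from 2 to 1 with DESeq2. In tumors, the covariate took sterol genes higher with sh#1 from 1 to 0 (as did at least 10 counts, which removed the gene), sterol and fatty acid genes lower with sh#2 each from 1 to 0 (sterol also with DESeq2) and sterol genes higher between hairpins from 0 to 1. Leaving out both tumors took sterol genes lower from 0 to 1 pooled and from 1 to 3 with sh#2. The cause was not tested.

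Leaving out each cultured library in turn gave ranges (sterol higher, sterol lower, fatty acid higher, fatty acid lower) of 0 to 4, 1 to 2, 0 to 1 and 1 to 3 pooled, 1 to 3, 1 to 3, 0 to 1 and 2 to 3 with sh#1, 4 to 9, 1 to 2, 2 to 3 and 3 to 3 with sh#2, and 0 to 0, 2 to 4, 1 to 3 and 2 to 4 between hairpins. Over all genes the pooled calls ran from 458 to 983 higher and 424 to 905 lower, beside 899 and 820 with every library. With sh#1 they ran from 909 to 1198 and 798 to 1064, and with sh#2 from 1670 to 1973 and 1547 to 1876. Between hairpins they ran from 857 to 1160 and 1062 to 1400. Leaving out each tumor gave 0 to 1 for sterol genes lower pooled, sterol genes higher and fatty acid genes lower with sh#1, fatty acid genes lower with sh#2 and sterol genes higher between hairpins, 0 to 2 for sterol genes lower with sh#2, and 1 to 1 for fatty acid genes lower pooled. INSIG2 had 6 to 17 counts per tumor, and whether depth limited its test was not tested.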
